A study of Homo sapiens with 10 samples.

Results

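The sites described here are places where FOS was bound in non-transformed breast epithelial cells and where none of 5 transcription factors had a called peak once the cells were transformed. They were chosen by measured values: a FOS peak of non-transformed cells was taken when no peak summit of FOS, JUN, JUNB, NFKB1, or STAT3 in transformed cells lay within 300 bp of its own summit. By this rule, 12423 of 119754 FOS sites on chromosomes 1 to 22 and X (10.4%) were emptied, and the other 107331 are called kept. Emptied means only that no peak was called, because the deposited lists hold called peaks and give no signal between them. The absence of peaks in transformed cells is therefore the definition of these sites and is not a finding.

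The study mapped the 5 proteins by chromatin immunoprecipitation and sequencing (ChIP-seq) in MCF10A-ER-Src cells. These are an immortalized human breast epithelial line in which v-Src, a viral oncoprotein kinase, is joined to the part of the estrogen receptor that binds ligand, and tamoxifen switches the fusion on. Each protein has 1 library from non-transformed cells, which received ethanol, and 1 from cells transformed for 12 h with 1 µM 4-hydroxy-tamoxifen, all from the same line. The names of the libraries in the file headers put the ethanol culture at 36 h and the tamoxifen culture at 12 h, so duration and treatment cannot be told apart. With 1 library a group, no difference between conditions has a replicate check, no test was made, and the Wilson 95% intervals given for shares cover the counting of sites only.

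FOS and JUN family proteins pair through leucine zippers to form the AP-1 factors. FOS cannot form stable dimers with itself and binds DNA with a JUN family partner such as JUN or JUNB. NFKB1 encodes a subunit of NF-κB, and STAT3 is a factor activated by cytokine receptors and kinases; both act with AP-1 in inflammatory gene programs and in the transformation of this cell line. After the authors' filter, the libraries hold 4837474 to 22082403 reads. The FOS library of transformed cells has 1.19 times the reads of the FOS library of non-transformed cells.

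The choice was decided mainly by the lists of FOS and JUN. Of the FOS sites of non-transformed cells, 20304 (17%) had no FOS summit in transformed cells within 300 bp. Among those, 5557 (27.4%) still had a JUN summit there, 2700 (13.3%) a JUNB summit, 2200 (10.8%) a STAT3 summit, and 2143 (10.6%) an NFKB1 summit. In all, 7881 (38.8%) had at least 1 of these and were counted as kept. Without the FOS list of transformed cells the rule would give 22169 sites, and without the JUN list 15200.

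Emptied FOS sites were weak FOS sites. The pileup, a count of how many extended reads cover the summit, had a median of 9 at emptied sites, with quartiles of 7 and 10. Kept sites had a median pileup of 18, with quartiles of 11 and 35. The ranges of pileup overlapped, from 5 to 120 reads at emptied sites and from 5 to 185 at kept sites. Fold enrichment is the ratio of pileup to the local background, which was taken over 1000000 bp. The median fold enrichment was 4.92 at emptied sites and 9.85 at kept sites. The median −log10 q was 4.35 against 15.0. Peaks were also shorter, with a median of 135 bp against 214 bp. Of the emptied sites, 4188 (33.7%) had the shortest peak length in the list, 120 bp, against 6706 (6.25%) of the kept sites.

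The share of FOS sites that were emptied fell with each step in pileup. It was 45.2% (95% interval 43.3 to 47.1) at a pileup of 5 to 6 reads, 32.5% at 7 to 8, and 20.5% at 9 to 10. At 11 to 13 reads it was 11.5%, and at 14 to 17 reads 5.37%. Among stronger sites, 264 of 16608 (1.59%) were emptied at 18 to 25 reads, 40 of 23441 (0.171%) at 26 to 50 reads, and 3 of 14913 (0.0201%) above 50 reads. Only 307 emptied sites (2.47%) reached the median pileup of the kept sites.

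**Figure D1:**
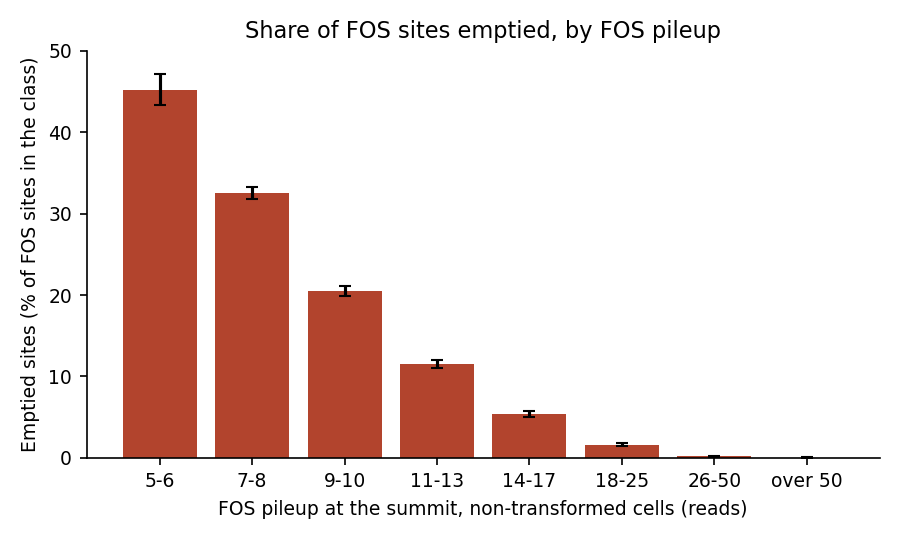
Share of the FOS sites of non-transformed cells that were emptied (y axis, percent) in 8 classes of FOS pileup (x axis, reads). Bars start at 0 and error bars are Wilson 95% intervals. The share falls from 45.2% at 5 to 6 reads to 0.0201% above 50 reads.

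The median pileup of 9 reads corresponds to 10.7 reads at the depth of the FOS library of transformed cells. With pileups divided by the filtered reads of each library, 12339 emptied sites (99.3%) stood at or above the 5th percentile of the FOS peaks called in transformed cells, and 1067 (8.59%) at or above their median. The first of these shares is set by the calling thresholds of both libraries and was 99.9% over all FOS sites, so it says nothing particular about the emptied ones. How far weak sites go uncalled in a repeat library was not tested, since no protein has a second library. The local background was at its genome-wide floor at 6293 emptied sites (50.7%) and at 50338 kept sites (46.9%).

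At the edge of the rule, sites on both sides looked alike in strength. The 422 emptied sites with the nearest summit of transformed cells at 301 to 350 bp had a median pileup of 8 and a median fold enrichment of 4.92. The 492 kept sites at 251 to 300 bp had 8 and 4.89.

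Most emptied FOS sites stood alone in non-transformed cells. No JUN, JUNB, NFKB1, or STAT3 summit of non-transformed cells lay within 300 bp of 10399 of them (83.7%; 95% interval 83 to 84.3). The same was true of 32.6% of all FOS sites and of 26.7% of the kept ones. A JUNB summit was present at 1056 emptied sites (8.5%; 8.02 to 9), against 50.6% of all FOS sites and 55.5% of kept sites. JUN, the other AP-1 partner profiled, was present at 624 (5.02%; 4.65 to 5.42), against 46.5% and 51.3%. STAT3 was present at 536 (4.31%), against 26.5% and 29.1%, and NFKB1 at 67 (0.539%), against 8.89% and 9.86%. The libraries of non-transformed cells differ in depth. NFKB1 is the shallowest of the 10, with 4837474 filtered reads, and JUNB has 9178601, STAT3 10929003, and JUN 15852999. The part of depth in these shares was not tested.

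Weak FOS sites have fewer other summits in general, so the kept sites were also weighted to the pileups of the emptied sites. On that footing 29.5% of kept sites had JUN, 21.3% JUNB, 16.8% STAT3, and 4.83% NFKB1, and 50.6% had none of the 4. Each value lay between that of the emptied sites and that of all kept sites.

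**Figure D2:**
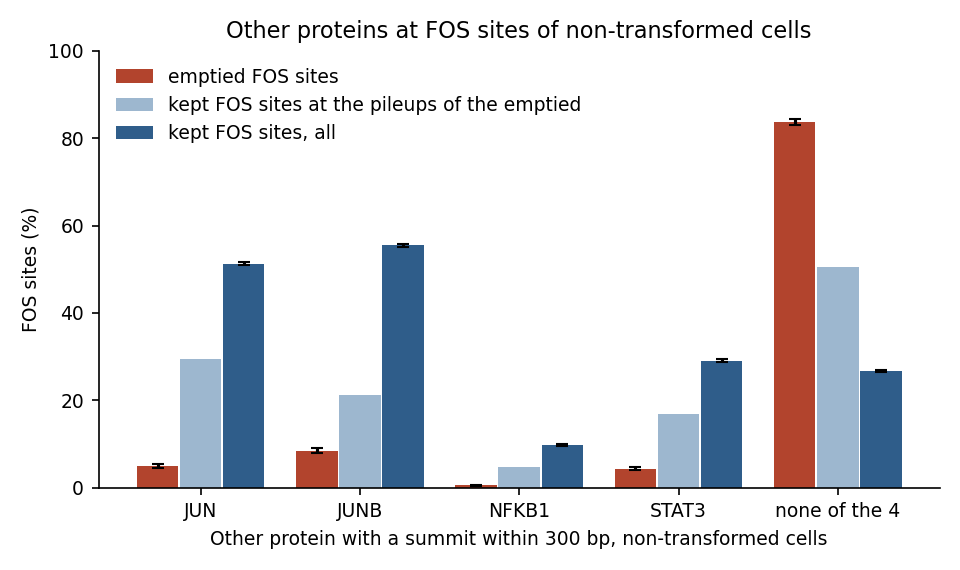
Share of FOS sites (y axis, percent) with a summit of each other protein within 300 bp in non-transformed cells, and with none of the 4. Red bars are emptied sites, light blue bars kept sites weighted to the FOS pileups of the emptied, dark blue bars all kept sites, and error bars are Wilson 95% intervals. Emptied sites have the lowest share for each protein and the highest share with none, 83.7%.

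These shares are not independent of the choice, because the lists of JUN, JUNB, NFKB1, and STAT3 in transformed cells were part of it. A site where a protein is bound in both conditions was kept for that reason alone. When absence was asked of the FOS list only, 16.8% of the 20304 sites without FOS in transformed cells had a JUN summit in non-transformed cells, 13.5% JUNB, 12.2% STAT3, and 2.88% NFKB1. Sites that kept FOS, weighted to the same pileups, had 30.1%, 25.1%, 16.6%, and 5.04%. The order of JUN and JUNB therefore depends on the rule: JUNB was the more frequent at the emptied sites, and JUN was the more frequent at the sites chosen by FOS alone. Leaving out only the JUN list of transformed cells gave 9.98% with JUN and 9.22% with JUNB. For STAT3 and NFKB1, the pooled shares of sites chosen by FOS alone do not hold in every pileup class. STAT3 was at 8.39% at 7 to 8 reads, against 15.4% of the weighted sites that kept FOS. At 26 to 50 reads it was at 49.7% (44.3 to 55.1) against 34.2%, and NFKB1 at 17.2% (13.5 to 21.6) against 11.2%. Above 50 reads NFKB1 was again the lower, at 19.4% against 23.5%.

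Where another protein was present, it was usually a single one. Of the 2024 emptied sites with at least 1 other summit (16.3%, against 73.3% of kept sites), 1794 had exactly 1, 203 had 2, 25 had 3, and 2 had all 4. Of all kept sites, 27.1% had exactly 1, 25.3% had 2, 15.4% had 3, and 5.46% had all 4. These shares were not weighted for pileup. JUNB alone accounted for 925 emptied sites (7.45%, against 15.8% of kept sites) and JUN alone for 445 (3.58% against 7.72%). STAT3 alone accounted for 391 (3.15% against 3.01%) and NFKB1 alone for 33 (0.266% against 0.579%). JUN with JUNB and no other protein was found at 76 sites, JUN with STAT3 at 72, and JUNB with STAT3 at 34.

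Seen from the combinations, the share of FOS sites emptied was 26.6% of the 39071 sites with FOS alone. It was 10.8% of 3617 sites with STAT3 as the only other protein, 5.18% of 17859 with JUNB only, 5.09% of 8736 with JUN only, and 5.05% of 654 with NFKB1 only. With both JUN and JUNB it was 0.394% (76 of 19275), and with JUN, JUNB, and STAT3 it was 0.102% (14 of 13670). Of the 5858 sites with all 4, 2 were emptied (0.0341%). The rule bears on these shares, since a protein called in both conditions made a site kept. They were also not matched for strength. Kept sites with another protein had median FOS pileups of 30 to 37 reads, against 18 at all kept sites.

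JUN and JUNB were both present at 95 emptied sites (0.765%; 0.626 to 0.934), against 33.6% of all FOS sites, 37.4% of kept sites, and 8.22% of kept sites weighted to the pileups of the emptied. The product of the separate JUN and JUNB shares is 0.427% at emptied sites and 6.28% at the weighted kept sites, so both sets had more joint sites than that product. Among emptied sites with JUNB, 9% also had JUN, against 38.6% of the kept sites with JUNB after weighting and 67.5% before it. JUNB without JUN was found at 961 emptied sites (7.74%) and JUN without JUNB at 529 (4.26%), compared with 18.1% and 13.9% of kept sites.

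The shares of JUNB and, less evenly, of JUN were higher at emptied sites with higher FOS pileup. JUNB was present at 4.34% of emptied sites with 7 to 8 reads, 12.5% at 11 to 13 reads, 22.8% at 14 to 17 reads, and 36.7% (97 of 264; 31.2 to 42.7) at 18 to 25 reads. Kept sites in these classes had JUNB at 16.1%, 28.8%, 41.1%, and 60.2%. JUN was present at 3.76%, 7.12%, 7.89%, and 7.2% (4.66 to 11) of emptied sites in the same classes, against 28.9%, 29.9%, 35.5%, and 46.2% of kept sites. At 18 to 25 reads, sites chosen by the FOS list alone had JUN at 31.1% and JUNB at 42%, against 46.3% and 60.8% of sites that kept FOS, so the low JUN share in this class also depends on the lists used. Of the 40 emptied sites at 26 to 50 reads, 25 had JUNB (62.5%; 47 to 75.8) and 6 had JUN (15%; 7.06 to 29.1), against 88.5% and 72.7% of kept sites. Of the 3 above 50 reads, 1 had JUNB and 0 had JUN.

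**Figure D3:**
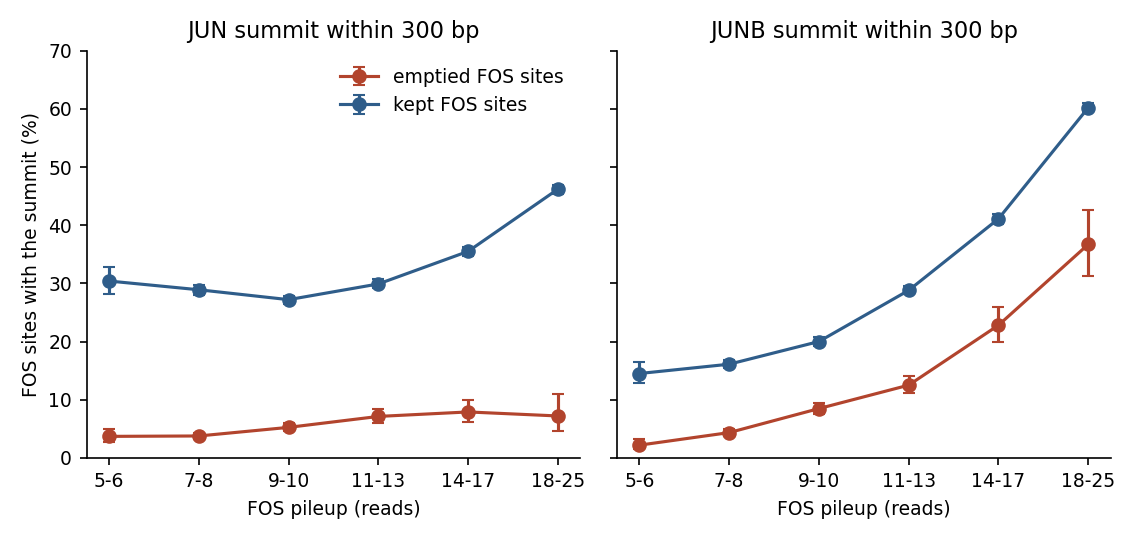
Share of FOS sites (y axis, percent) with a JUN summit (left) or a JUNB summit (right) within 300 bp in non-transformed cells, by FOS pileup (x axis, reads). Red points are emptied sites, blue points kept sites, and error bars are Wilson 95% intervals. JUNB at emptied sites climbs to 36.7% at 18 to 25 reads while JUN there is at 7.2%.

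Peaks of the other proteins at emptied sites were lower than at kept sites. The rule bears on this, since it left out sites where the same protein was called in transformed cells. The median pileup of the JUN peak was 8 reads, against 12 at kept sites, and that of the JUNB peak was 7, against 12. STAT3 peaks had a median of 9 against 12, and NFKB1 peaks 6 against 8. The kept sites with another protein were stronger FOS sites, with median FOS pileups of 30 to 37 reads against 9 to 11. Weighted to the FOS pileups of the emptied sites with the same protein, they had medians of 10 for JUN, 8 for JUNB, 10 for STAT3, and 8 for NFKB1. Without that weighting, median fold enrichment was 5.12 against 7.40 for JUN, 5.64 against 8.88 for JUNB, 5.60 against 7.47 for STAT3, and 5.64 against 7.25 for NFKB1. Summits were also farther apart without weighting, and the distances at like FOS pileup were not worked out. The JUN summit lay a median of 46.5 bp from the FOS summit at emptied sites and 24 bp at kept sites. JUNB lay at 29 and 17 bp, NFKB1 at 42 and 36 bp, and STAT3 at 52 and 39 bp.

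Applied to each of the other proteins in turn, the same rule emptied 11665 of 81444 JUN sites (14.3%), 10257 of 75249 JUNB sites (13.6%), 5703 of 42810 STAT3 sites (13.3%), and 504 of 13252 NFKB1 sites (3.8%). A JUN, JUNB, NFKB1, or STAT3 site beside an emptied FOS site is nearly always emptied as well, because the rule already asked for no summit of transformed cells there. An emptied JUNB site lay within 300 bp of 1017 emptied FOS sites, which is 96.3% of the 1056 with any JUNB summit, 8.19% of the FOS set, and 9.92% of the JUNB set. Of all JUNB sites, 1.4% lay by an emptied FOS site. For JUN it was 577 of 624 emptied FOS sites with any JUN summit, 4.64% of the FOS set and 4.92% of the JUN set, against 0.767% of all JUN sites. For STAT3 it was 498 of 536, 4.01% and 8.57%, against 1.24% of all STAT3 sites. For NFKB1 it was 60 of 67, 0.483% of the FOS set and 11.9% of the NFKB1 set, against 0.506% of all NFKB1 sites.

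Distance to the summits of transformed cells chose the emptied sites, so it is given as a description. The nearest summit of any of the 5 proteins lay at a median of 3839 bp, with quartiles of 1272.5 and 9655 bp and a maximum of 668514 bp. Of the emptied sites, 9829 (79.1%) were more than 1 kb from every summit of transformed cells and 2594 (20.9%) were within 1 kb. Whole peaks touched at 206 sites (1.66%), where the summits lay more than 300 bp apart within wide peaks.

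**Figure D4:**
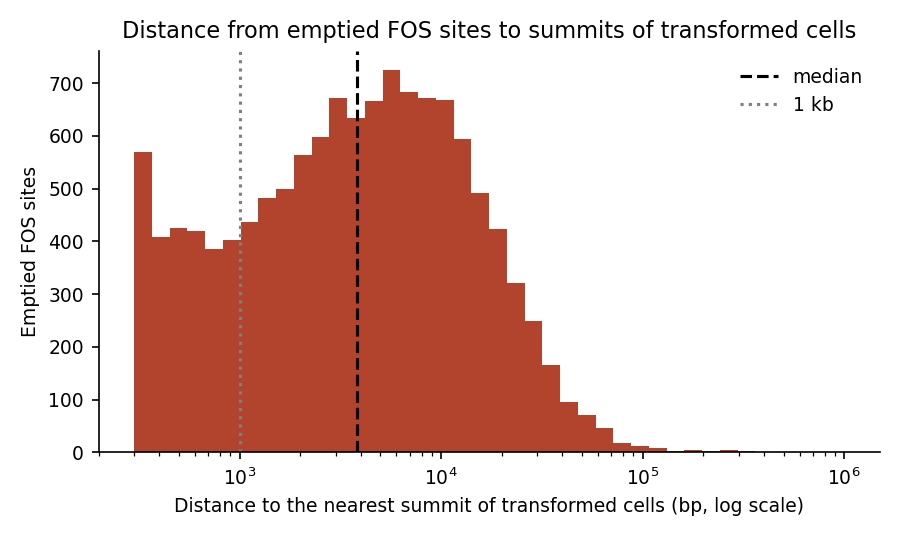
Number of emptied FOS sites (y axis) by the distance from their summit to the nearest summit of any of the 5 proteins in transformed cells (x axis, bp, log scale). The histogram starts at the 300 bp of the rule; the dashed line is the median, 3839 bp, and the dotted line marks 1 kb, beyond which 79.1% of the sites lie.

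JUN was more frequent at emptied sites near a peak of transformed cells than at those far from one. JUNB was lowest from 500 bp to 1 kb and higher in each farther class. JUN was present at 10.1% (8.51 to 11.9) of the 1199 emptied sites with the nearest such summit at 301 to 500 bp, at 5.45% from there to 1 kb, and at 5.22% between 1 and 5 kb. It was at 3.77% between 5 and 20 kb and at 3% (2.16 to 4.17) of the 1132 sites beyond 20 kb. JUNB was at 8.92% (7.44 to 10.7), 6.45% (5.28 to 7.86), and 7.5% (6.77 to 8.31) in the same classes up to 5 kb. It was at 9.48% (8.64 to 10.4) between 5 and 20 kb and at 10.9% (9.18 to 12.8) beyond 20 kb. The interval beyond 20 kb overlapped those of the nearest class and of 5 to 20 kb. It lay above those from 500 bp to 1 kb and from 1 to 5 kb. STAT3 followed JUN, from 8.01% in the nearest class to 2.39% in the farthest. Median FOS pileup was 8 reads up to 1 kb and 9 reads beyond it, so the classes differed little in strength. They did differ in density, with medians of 7, 6, 6, 4, and 1 other FOS sites within 50 kb. The rule also bears on the nearest classes. There the 300 bp around a FOS summit can take in a JUN or STAT3 peak that itself lies by a summit of transformed cells. Beyond 1 kb this cannot happen. Of emptied FOS sites with the protein, 577 of 624 had an emptied JUN site and 498 of 536 an emptied STAT3 site. The parts of density and of the rule in the JUN, JUNB, and STAT3 shares were not tested.

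The strongest emptied sites with both JUN and JUNB are given by their summit in hg19, the build named in the submitters' processing notes. The 8 with the highest FOS pileup outside chromosome 8 had pileups of 20 to 47 reads, and 5 of them had peaks of transformed cells within 500 bp. At chr5:118696764, the FOS peak was 644 bp long with a pileup of 47 reads and a fold enrichment of 22.3. JUN and JUNB summits with pileups of 19 and 16 reads lay 300 and 293 bp away, and a STAT3 summit with 12 reads lay 294 bp away. In transformed cells all 5 proteins had summits 304 to 328 bp from this FOS summit, and the pileup there was 59 reads in the FOS library, 52 in STAT3, 40 in JUN, 39 in JUNB, and 36 in NFKB1. This site therefore stands just outside the 300 bp limit, beside peaks of all 5 proteins.

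The next site was of the same kind. At chr14:70183780, FOS had 42 reads, JUNB 22 reads at 11 bp, and JUN 8 reads at 41 bp, and summits of all 5 proteins in transformed cells lay 375 to 431 bp away. There the pileups were 64 reads for FOS and 93 for NFKB1. The sites at chr3:29799930, chr12:70943262, and chr1:216487912, with FOS pileups of 36, 28, and 28 reads, also had summits of all 5 proteins in transformed cells within 500 bp.

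The other 3 lay farther off. At chr12:92211408, FOS had 22 reads, JUN 6, and JUNB 9, and the nearest summit of transformed cells was that of FOS at 755 bp with 13 reads. At chr5:73503212, FOS had 22 reads, JUN 11, and JUNB 12, and the nearest was that of JUNB at 776 bp with 13 reads. At chr3:187678839, FOS had 20 reads, JUN 8, JUNB 6, and STAT3 8 reads, with STAT3 only 1 bp from the FOS summit. The nearest summit of transformed cells was 2871 bp away.

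The emptied sites of high pileup were also counted away from the peaks of transformed cells. Of the 307 emptied sites with a pileup of 18 or more, 242 lay beyond 1 kb, and of these 97 had a JUNB summit, 19 a STAT3 summit, 10 a JUN summit, and 1 an NFKB1 summit. JUNB was thus at 40.1% (34.1 to 46.4) and JUN at 4.13% (2.26 to 7.44). Both were below all FOS sites with 18 or more reads, where JUNB was at 82.8% and JUN at 71.1%. The mix of pileups differs, since 14913 of all FOS sites were above 50 reads and only 3 of these were emptied. At 18 to 50 reads, all FOS sites had JUNB at 76.6% and JUN at 61.4%. Kept sites at 18 to 25 reads had 60.2% and 46.2%. The strongest with another protein were chosen after their values were seen. At chr12:106053542, FOS had 39 reads and a fold enrichment of 21.1, with JUNB (10 reads) 16 bp and STAT3 (8 reads) 15 bp away, and the nearest summit of transformed cells lay at 8450 bp. At chr15:81154218, FOS had 38 reads, JUNB 16 reads at 26 bp, and STAT3 7 reads at 67 bp, with the nearest summit of transformed cells at 8894 bp.

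The next 4 had JUNB and no other protein. FOS had 36 reads at chrX:43665049 with JUNB 9 reads at 3 bp, and 36 reads at chr3:188272423 with JUNB 10 reads at 24 bp. It had 35 reads at chr1:59826055 with JUNB 9 reads at 9 bp, and 34 reads at chr15:79686754 with JUNB 11 reads at 35 bp. Their nearest summits of transformed cells lay 1748, 4246, 6142, and 13906 bp away. JUN had no summit within 300 bp at any of these 6 sites.

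Among emptied sites with FOS alone, the highest pileup stood far from the rest. At chr1:121484850, FOS had a pileup of 120 reads over a peak of 1404 bp, with a fold enrichment of 66.2. Each of the other 9 libraries had a summit 364 to 436 bp from it, which is within the span of this FOS peak. The transformed libraries had pileups of 85 to 118 reads there. The site thus counts as emptied, and as FOS alone, only by the 300 bp limit between summits. The next 4 had 29 to 31 reads. At chr11:95413922 FOS had 31 reads and the nearest summit of transformed cells lay at 8265 bp, and at chr1:211702917 FOS had 31 reads and it lay at 13860 bp. At chr1:221360710 and chr1:221871312, FOS had 29 reads each. The local background at these 3 sites on chromosome 1 was 1.51, 1.91, and 2.18 reads, above the 95th percentile of emptied sites (1.23 reads). Chromosome 1 held 56 of the 307 emptied sites with 18 or more reads, 1066 of all 12423, and 11656 of all 119754 FOS sites. How many of all FOS sites with 18 or more reads lie on it was not counted. The median local background at emptied sites was 0.963 reads there, the highest of any chromosome.

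The share of emptied sites differed between chromosomes. They made up 8.36% of the FOS sites of chromosome 20, the lowest share, and 13.2% of those of chromosomes 13 and X, the highest. At a fixed pileup of 7 to 10 reads, the share ran from 17.3% on chromosome 19 (14.6 to 20.3) to 31.8% on chromosome 13 (29 to 34.8), and was above 29% on chromosomes 4, 5, 21, and X as well. FOS sites with few neighbours were emptied more often. The share was 17.8% for FOS sites with no other FOS site within 50 kb and 6.23% for those with more than 20. At 7 to 10 reads it was 35.9% and 15.7%, so that the difference was also present among sites of like strength. Neighbours are not independent of the rule, which asks for distance from the summits of transformed cells. Emptied sites up to 500 bp from such a summit had a median of 7 neighbours, and those beyond 20 kb had 1. The part of peak density in these shares was not tested.

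Most of the 12423 emptied sites stood singly between kept ones. Emptied sites were 10.4% of FOS sites, so most would stand singly in a random order too. The counts in such an order were not worked out. When the FOS sites of non-transformed cells were read in order along each chromosome, 9287 emptied sites had no emptied site next to them, and 1172 pairs and 190 groups of 3 stood together. There were 10 runs of 5 sites, 3 of 6, 1 of 8, and 2 of 9.

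The most distinct run was on chromosome 19. Between chr19:2997927 and chr19:3028740, a stretch of 30.8 kb, FOS had 15 sites in non-transformed cells, of which 14 were emptied, in runs of 5 and 9 around 1 kept site. The emptied sites here were stronger than most, with pileups of 9 to 25 reads and a median of 14.5, and 5 of them had 18 or more. None had a summit of another protein within 300 bp. Over the whole stretch JUN had 1 peak in non-transformed cells, and JUNB, NFKB1, and STAT3 had none. In transformed cells FOS had 2 peaks there and each other protein had 1. The FOS library of non-transformed cells stood apart from the other 9 libraries over this stretch. Whether these 14 peaks mark FOS binding or reads of another origin in this 1 library was not tested, and neither genes nor sequence were read here. They make up 14 of the 12423 emptied sites and 5 of the 307 with a pileup of 18 or more.

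**Figure D5:**
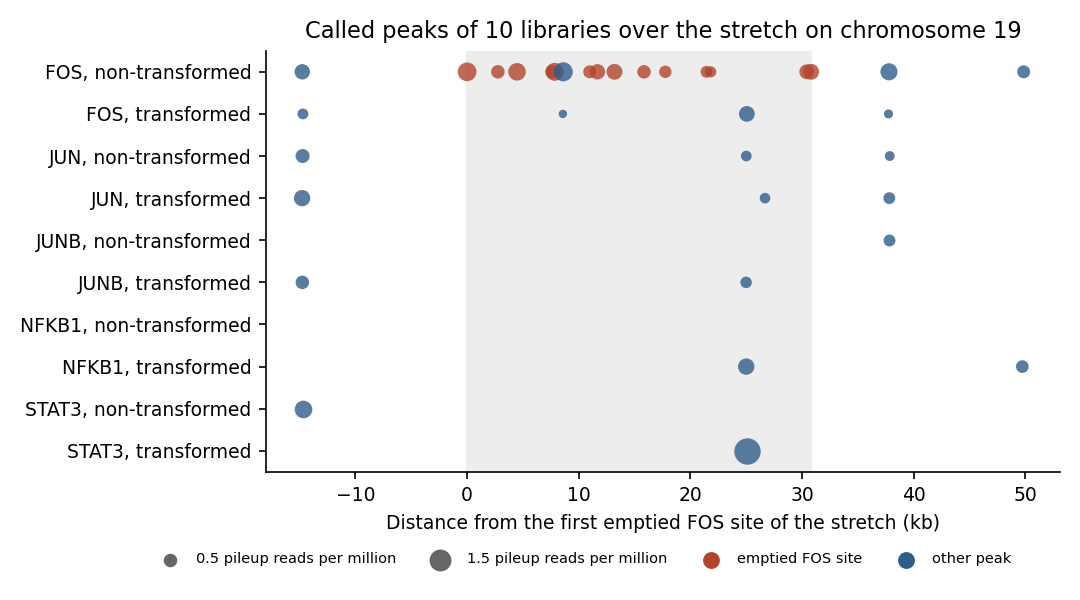
Called peaks of the 10 libraries (rows) over the stretch on chromosome 19, by distance from its first emptied FOS site (x axis, kb), with point area in proportion to pileup divided by the filtered reads of the library. Red points are the 14 emptied FOS sites, blue points all other peaks, and the grey band spans the 30.8 kb. FOS of non-transformed cells has 15 peaks in the band and every other library has 2 or fewer.

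The other long runs consisted of weak sites. The run of 9 on chromosome 4, from 190564934 to 190620835, had pileups of 5 to 8 reads and ended 241 kb before the last FOS peak of the chromosome. STAT3 had 7 peaks over it in non-transformed cells and 1 in transformed cells, JUN had 4 and 2, and JUNB and NFKB1 had 2 each and then 0 and 1. A run of 8 on chromosome 6, from 57398997 to 57442719, had 7 to 8 reads, and 4 of its sites had another protein. Over it JUN had 6 peaks in non-transformed and 5 in transformed cells, JUNB 5 and 6, NFKB1 1 and 5, and STAT3 4 and 2, and FOS had 4 in transformed cells. Runs of 6 on chromosome 21 spanned 10718384 to 10782281 and 11143133 to 11186233, with pileups of 6 to 12 reads. Over the second of these JUNB had 0 peaks in non-transformed and 3 in transformed cells, and JUN had 1 and 2. The last run of 6, on chromosome 5 from 84749047 to 85291396, was spread over 542 kb with 6 to 8 reads, and JUNB had 4 peaks over it in non-transformed cells and 1 in transformed cells.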

How the data were processed

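For each of the 5 proteins, ChIP-seq gave 1 peak list from non-transformed cells and 1 from transformed cells. The submitters' processing notes name Bowtie, MACS2, and hg19. Per the file headers, the authors called peaks in each library with MACS 2.0.10.20131216 from reads of 36 bp, without a control library, keeping at most 1 read per position, at a q-value cutoff of 0.05. In the deposited lists the pileup is the signal in extended reads, not scaled for depth. Fold enrichment, as deposited, is the ratio of pileup to local background. Significance is deposited as −log10 p-value and −log10 q-value.

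Peaks on chromosomes 1 to 22 and X were used. Another protein was counted as present when its summit lay within 300 bp of the FOS summit. Kept sites were weighted so that their pileups had the distribution of the emptied sites. The local background was worked out from pileup and fold enrichment with the pseudocount of 1 read that MACS adds. Per the file headers its range is 1000000 bp, so it describes a wide region and not the close surroundings of a site. Neighbours were counted within 50 kb. The sites named were the 8 with the highest FOS pileup among emptied sites with JUN and JUNB, the 5 highest among those with no other protein, both outside chromosome 8, and the 5 longest runs, given as 6 because of a tie. A further 6 sites were named after their values were seen. The sites and lists were chosen with earlier results of these data known. Sequences, genes, and motifs were not analysed here, because the genome at hand was of another build. The code was written in Python 3.11.15 (scipy 1.17.1, pandas 2.3.3, numpy 2.4.6) and was tested on simulated data. Alternatives changed the distance, the threshold on FOS peaks of non-transformed cells, the lists used, the chromosomes, and the treatment of close summits.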

Additional observations from a re-analysis of the deposited data

How the results depend on the processing

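No paired analysis was possible because each protein and condition has 1 sample and no replicate number. The number of emptied sites, the shares with other proteins, and the median strength were recomputed under 15 alternatives, of which 1 was chosen after seeing the data. A distance of 150 or 500 bp, merged summits, and all chromosomes left every value within its interval, or the number of sites within 1.5 times. At 1000 bp, 5.45% of sites had JUN, 9.44% JUNB, and 82.3% no other protein. By overlap of whole peaks these were 4.48%, 7.78%, and 84.9%. Stricter thresholds were asked only of the FOS list of non-transformed cells, and the shares of kept sites under them were not worked out. With a −log10 q of at least 10, 944 of 67829 FOS sites (1.39%) were emptied. Of these, JUN was at 8.16%, JUNB at 29.1%, NFKB1 at 1.38%, STAT3 at 9.43%, and none at 59.6%. Their median pileup was 16 and their median fold enrichment 8.75. At a depth-scaled pileup of 2 RPM or more, 7 of 23953 FOS sites (0.0292%) were emptied. In the same order they had 28.6%, 71.4%, 0%, 71.4%, and 14.3%, a pileup of 47, and a fold enrichment of 23.5. Absence from the FOS list alone gave 20304 sites, with 16.8%, 13.5%, 2.88%, 12.2%, and 67.4%, and a fold enrichment of 5.24. Leaving out each list of transformed cells in turn gave 12808 to 22169 sites, 5.5 to 9.98% with JUN, 8.5 to 14.2% with JUNB, 0.392 to 0.941% with NFKB1, 3.43 to 6.41% with STAT3, 77.7 to 82.9% with none, and a fold enrichment of 4.92 to 5.47. The most sites, 22169, came without the FOS list, and the highest JUN share without the JUN list. For sites farther than 1 kb from summits of transformed cells, added after seeing the data, JUN was at 4.34%, STAT3 at 3.71%, and none at 84.5%. JUNB was more frequent than JUN in 13 of the 15 alternatives, all but absence from the FOS list alone and the omission of the JUN list. Alternatives on motifs and start sites were not run, since the genome at hand was of another build. The lists hold called peaks only, so a weak signal under the threshold in transformed cells cannot be seen.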
